A study of Mus musculus with 8 samples.

Results

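Red cells filled with globin RNA were examined in the blood library of a droplet-based single-cell study of mice. The cells were chosen by measured values: a cell of blood was taken where the alpha globin genes Hba-a1 and Hba-a2 and the beta globin genes Hbb-bs and Hbb-bt together made up at least 50% of its unique molecular identifiers (UMIs, each standing for 1 captured RNA molecule). 227 cells met this rule, of 7763 blood cells and of 20012 cells in all. They were 2.92% of the sorted blood cells, with an exact Clopper-Pearson 95% interval of 2.56% to 3.32%. Everything measured on RNA in these cells is tied to that choice and is given as a description, with no test.

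The red cells were set against cells that express early erythroid genes in the other blood-forming tissues, namely 203 bone marrow cells and 218 spleen cells with at least 1 UMI of Klf1 and at least 2 of Car1, and against the other 7536 cells of blood. All groups came from female C57BL6/J mice carrying a subcutaneous flank tumor of injected MOPC cells (the treatment label spells it MPOC), and no tumor-free mice were profiled here. Each tissue holds WT mice and a knockout called Genotype_02 whose gene is not named; no label ties a cell to a genotype, so every group is a mixture of unknown proportions. Blood, marrow and spleen were each 1 RNA library, and tissue and library cannot be told apart. Red cells were lysed chemically in every tissue, for longer in blood, and the sort kept DAPI-negative cells that were either Gr1+ and free of lineage markers, Ter119 of red cells among them, or Gr1- and cKit+. The number of red cells therefore describes what passed lysis and sort, not the blood of the mice.

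Red cells arise from erythroid progenitors that divide, fill with hemoglobin and then expel their nucleus. The young red cell that enters blood, the reticulocyte, still carries RNA, which it can translate but no longer replace, and it clears its mitochondria and ribosomes as it matures. Hemoglobin joins alpha and beta chains around heme. Alas2 encodes the erythroid enzyme that starts heme synthesis, and Klf1 is a transcription factor that binds CACCC motifs in the beta globin promoter.

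The promoters of the genes that define these cells are shown because all of the RNA described here is read beside their products. Each line gives the 110 bases before the RefSeq start of the gene, 5′ to 3′ on the gene's strand, in build GRCm38.p6. Capitals mark every match, on either strand, to CACCC (the motif bound by Klf1-type factors), to CCAAT, to TATAA (core promoter element) or to AGATAA (bound by Gata1-type factors), and neighbouring matches run together. Windows were found for 5 of 5 genes.
Hbb-bs, chr7:103827929-103828038, minus strand: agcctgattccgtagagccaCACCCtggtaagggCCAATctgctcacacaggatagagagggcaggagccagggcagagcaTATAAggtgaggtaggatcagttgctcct
Hbb-bt, chr7:103813924-103814033, minus strand: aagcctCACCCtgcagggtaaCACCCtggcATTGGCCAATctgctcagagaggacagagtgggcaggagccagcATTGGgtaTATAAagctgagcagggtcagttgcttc
Hba-a1, chr11:32283562-32283671, plus strand: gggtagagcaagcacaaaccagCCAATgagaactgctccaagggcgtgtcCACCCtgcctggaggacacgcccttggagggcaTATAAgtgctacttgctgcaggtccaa
Alas2, chrX:150547307-150547416, plus strand: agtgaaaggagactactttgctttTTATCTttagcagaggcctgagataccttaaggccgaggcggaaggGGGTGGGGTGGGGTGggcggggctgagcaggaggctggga

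The windows of Hbb-bs, Hbb-bt and Hba-a1 each held CACCC with CCAAT and with TATAA, a combination found in 0.554% of 32851 RefSeq promoter windows of the same length. Alone, CACCC was in 29.6% of those windows, CCAAT in 20.2%, TATAA in 10.9% and AGATAA in 3.99%. The longer CCACACCC, in 1.69% of windows, was in the Hbb-bs window and not in that of Hbb-bt. Alas2 had CACCC on the opposite strand and AGATAA, and no TATAA. The 300-base RefSeq windows of Hba-a1 and Hba-a2, of which the shown bases are a stretch, were shifted by 3 bases and identical at 297 of 297 compared positions, so only that of Hba-a1 is shown. A match is a description of these letters and not a measured binding site.

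Cells of this kind came almost all from the blood library. 0 of 5682 marrow cells met the same globin share, with an exact interval up to 0.0649%, and 0 of 462 tumor cells, up to 0.795%. In spleen 4 of 6105 cells met it, or 0.0655% (0.0179% to 0.168%). No red cell shared its barcode sequence with a cell of another library, while 62 cells of all libraries did. Library medians lay between 3132 UMIs per cell (blood) and 8663.5 (tumor), and library totals between 7163843 and 64092351 UMIs.

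The globin share had no gap at the chosen threshold, although few cells lay near it. In blood 3 cells had 40 to 50% globin and 6 had 50 to 60%. Of the 7536 other blood cells, 7527 had under 10% globin, and 188 of the 227 red cells had 90% or more. The cells just outside had 43.9%, 49.6% and 49.8% globin. Those just inside had 50.04%, 50.7% and 53.5%, with 1710, 2111 and 1513 genes detected.

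The cells carry the markers of the label but are not all alike, and they are described below as 3 kinds, a split made after the values were seen. The 188 cells with 90% globin or more had a median of 6783 UMIs, of which 190 lay beside globin, and of 95.5 genes, between 31 and 329. Another 20 cells had 50 to 90% globin and 46 to 331 genes. In these 20, 51.1% of the UMIs beside globin fell on genes that overlap ribosomal RNA repeats, chiefly Gm42418, and their median UMI count was 1758. The remaining 19 cells had 50 to 90% globin and 1037 to 2111 genes. Those 19 cells supplied 72357 UMIs beside globin, 59.2% of the total over all 227, so that they weigh heavily in every sum.

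These 19 cells of many genes carried RNA and surface proteins of white blood cells together with red cell RNA. Genes of the neutrophil list (S100a8, S100a9 and 16 others) made up 17.7% of their UMIs beside globin, against 1.01% in the 188 cells of highest globin and 12.6% in other blood cells. Their median CD44 antibody count, a protein of most white blood cells, was 1357, against 22.5 in the 188 cells. Erythroid cells carried CD44 too, with medians of 354 in marrow and 381 in spleen. The CD11b antibody had a median of 81 in the 19 cells and 0 in the 188, against 1 in each erythroid group and 66 in other blood cells. All 19 held Alas2 RNA, 16 carried 1 hashtag and 3 carried several. No doublet caller was run and the part of joined cells in this kind was not tested. For this reason values below are stated to be over all 227 red cells or over the 188 with 90% globin or more, and list counts are given for both.

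**Figure D1:**
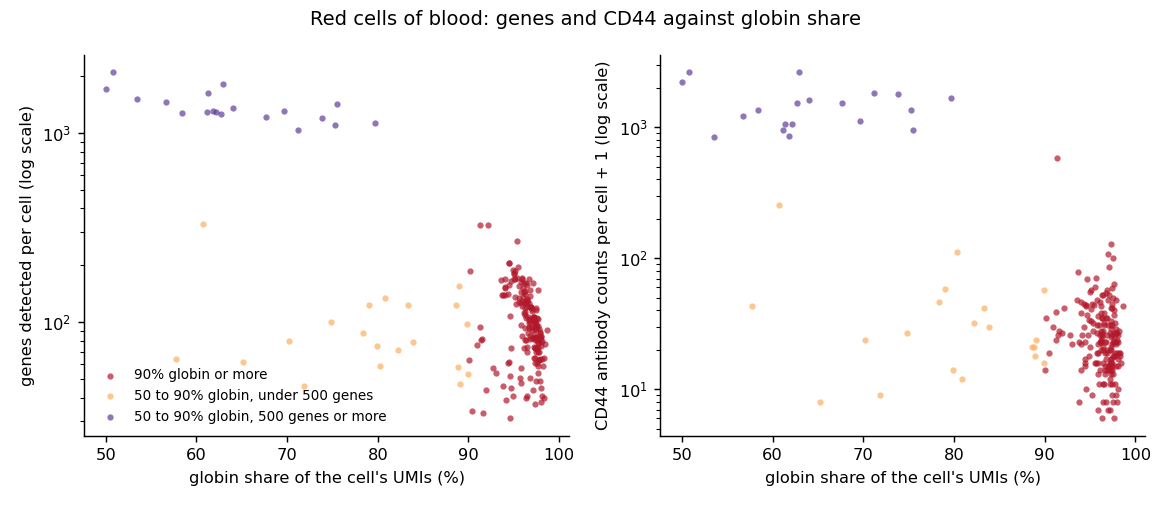
Each point is 1 of the 227 red cells of blood, with its globin share (percent of UMIs) on the horizontal axis of both panels. The left panel shows the genes detected (log scale) and the right panel the CD44 antibody count plus 1 (log scale). The 19 cells with 50 to 90% globin and 500 genes or more form a band of 1037 to 2111 genes with high CD44, and the 188 cells with 90% globin or more lie at 31 to 329 genes with a median CD44 count of 22.5.

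Adult globin filled these cells almost entirely, in a mixture led by Hbb-bs. The 4 genes of the rule gave 1317314 UMIs. Hbb-bs supplied 568796 of them (43.2%), Hba-a1 347341 (26.4%), Hba-a2 275122 (20.9%) and Hbb-bt 126055 (9.57%). Because the alpha genes are near-identical copies, the counting could split their reads, and their division is uncertain. The embryonic genes Hba-x, Hbb-y, Hbb-bh1 and Hbb-bh2 were at 0 UMIs, which places each below 3 of 1317314 globin UMIs. The theta globins Hbq1a and Hbq1b had 29 and 26 UMIs.

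The reference cells held little of these transcripts. Globin came to 63 UMIs in the 203 marrow erythroid cells and to 233 in the 218 spleen erythroid cells. Among the other blood cells, 7521 with under 1% globin held 3689 globin UMIs in all, and 35.5% of them had at least 1, at a median depth of 3108 UMIs. Alas2, the remaining marker of the label, was seen in 210 of 227 red cells (92.5%, 88.3% to 95.6%) at a median of 7 UMIs. It was seen in 1 of 203 marrow cells, in 1 of 218 spleen cells and in 19 of 7536 other blood cells (0.252%).

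The share of the minor beta chain gene varied widely between red cells. Among the 188 cells with 90% globin or more, Hbb-bt made up 0 to 27.3% of the adult beta globin UMIs, with a median of 17.3% and quartiles of 12.9% and 20.7%. The spread between cells had an SD of 6.96 percentage points, while counting alone would give 0.66. In 32 cells the share lay under 8%. The alpha share of all globin UMIs was steadier, with a median of 47.4%, an SD of 4.73 points and 0.808 from counting. Hba-a2 was 43.8% of alpha UMIs at the median, with an SD of 2.57 points and 1.18 from counting.

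**Figure D2:**
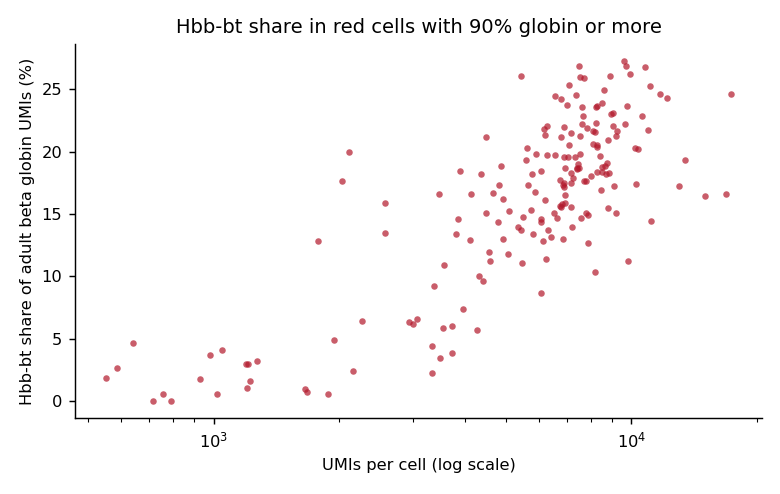
Each point is 1 of the 188 red cells with 90% globin or more, with its UMI count (log scale) on the horizontal axis and the Hbb-bt share of adult beta globin UMIs (percent) on the vertical axis. Cells with few UMIs lie near 0 and cells with many reach up to 27.3%.

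Cells with little Hbb-bt also had little other RNA. The 188 cells were ordered by Hbb-bt share into groups of 47, whose median shares were 4.93%, 15.1%, 18.7% and 23.6%. From the lowest group to the highest, median UMIs were 2994, 6426, 7320 and 8217, and median genes were 61, 85, 104 and 136. UMIs beside globin had medians of 91, 170, 229 and 300. Since the groups differ in depth, values per UMI are the fairer comparison. Genes of late red cell maturation made up 6.34%, 10.5%, 10.7% and 11.3% of the RNA beside globin in the same order. Bpgm, the enzyme that makes 2,3-bisphosphoglycerate and so tunes oxygen release, had levels of 10439, 19006, 22000 and 22835 CPM (UMIs per 1000000 UMIs beside globin). Alas2 did not follow that order, with 25606, 33902, 32392 and 29536 CPM. Gm42418 ran the opposite way, at 200906, 184919, 163825 and 132477 CPM. The CD24 antibody had median counts of 786, 403, 481 and 434. This ordering was made after the shares were seen, it uses globin counts that also chose the cells, and none of these values was tested.

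Very little RNA remained beside globin. A red cell had a median of 6770 UMIs (quartiles 3818 and 8357), of which 217 (129.5 and 392.5) came from other genes, and a median of 98 genes (73 and 142). Marrow erythroid cells had a median of 25880 UMIs and 4777 genes, spleen erythroid cells 39120.5 UMIs and 5825.5 genes, and other blood cells 3107.5 UMIs and 1242 genes. After each cell was thinned to 500 UMIs, red cells had a median of 20 genes, against 344 in marrow erythroid, 352.5 in spleen erythroid and 331 in other blood cells. After thinning to 100 UMIs beside globin, which left out 34 red cells, the medians were 59 genes in red cells, 90 in marrow erythroid, 90 in spleen erythroid and 81 in other blood cells. The RNA beside globin was thus also spread over fewer genes at equal counts, as a description of the cells so chosen.

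Levels below are CPM beside globin, with all 10 hemoglobin genes left out. A gene is called higher or lower where its level differs at least 2-fold and at least 20 UMIs were observed or expected in the red cells. Against marrow erythroid cells 593 of 1382 measured genes were higher (42.9%) and 610 lower (44.1%). Against spleen erythroid cells 605 of 1406 were higher (43%) and 648 lower (46.1%). Against other blood cells 155 of 1139 were higher (13.6%) and 219 lower (19.2%). In the 188 cells with 90% globin or more the rule could be applied to fewer genes: 149 of 378 were higher (39.4%) and 185 lower (48.9%) against marrow, 153 of 383 higher (39.9%) and 191 lower (49.9%) against spleen, and 152 of 453 higher (33.6%) and 225 lower (49.7%) against other blood. The cells were chosen on RNA, so nothing is read from these shares or from the members' counts beside them. Scaling to the UMIs of all genes lowers every log2 value against each of these groups by 3.56 for the 227 cells and by 4.79 for the 188. A gene that is higher beside globin by less than 11.8-fold over all red cells, or by less than 27.7-fold in the 188, is therefore lower per UMI of all genes.

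The 15 genes with most UMIs beside globin were a mixture of red cell, white cell and repeat-like transcripts. The highest was Gm42418 with 11698 UMIs, followed by S100a9 with 5850, S100a8 with 5048 and Malat1, a long RNA kept in nuclei, with 2423. AY036118 had 1778, the ubiquitin gene Ubb 1651, Alas2 1586, the actin-binding Tmsb4x 1440, the ferritin light chain Ftl1 1348 and Cmss1 1340. The glutathione peroxidase Gpx1 had 1145, Bpgm 1017, the ubiquitin ligase Mkrn1 983, Camk1d 954 and the ferritin heavy chain Fth1 872. Gm42418 and AY036118 overlap ribosomal RNA repeats, and Cmss1 and Camk1d carry similar stretches, so their counts may come from ribosomal RNA and are uncertain as gene expression.

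Some of the 15 genes had far lower levels in the cells of highest globin. S100a9 had 47844 CPM over all red cells and 4070 in the 188, where it had 176 UMIs, and S100a8 had 41285 and 3469, on 150 UMIs. Malat1 had 64 UMIs in the 188 cells. The level of Malat1 was 19816 CPM over all 227 red cells and 1480 in the 188, against 2981 in marrow and 2555 in spleen erythroid cells, so it was higher than in both erythroid groups over all red cells and below both in the 188, past the 2-fold rule against marrow alone. Over all red cells it was lower than in both per UMI of all genes. For Alas2, Bpgm, Mkrn1, Gpx1, Ftl1 and Ubb the levels were instead higher in the 188 cells than over all red cells, as in the plot of gene levels.

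**Figure D3:**
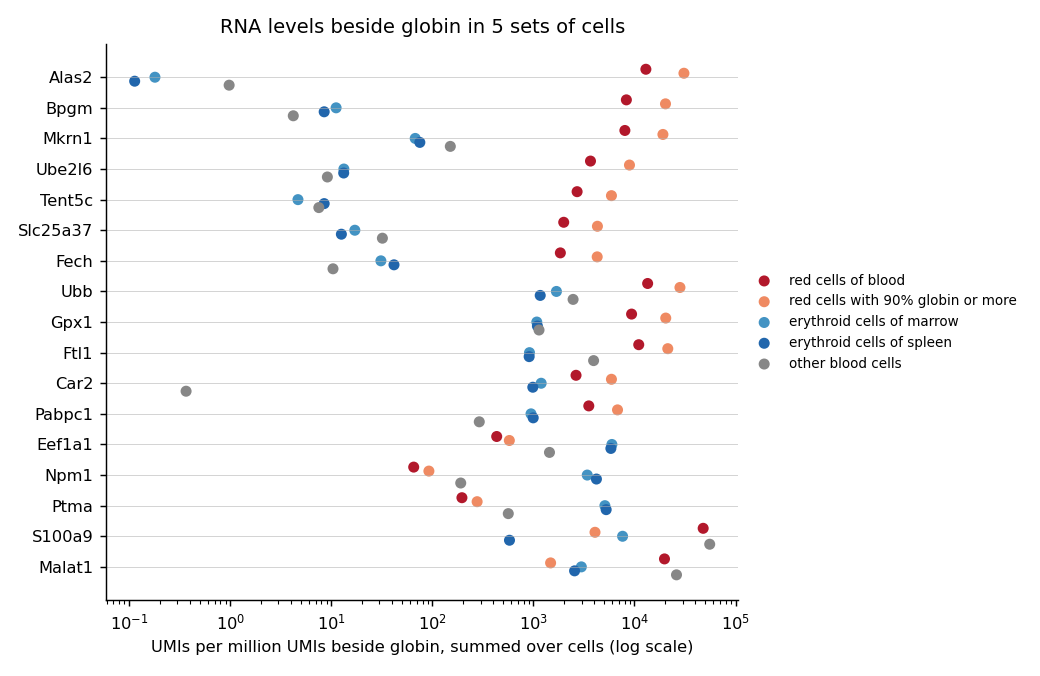
Levels of 17 genes in CPM, UMIs per 1000000 UMIs beside globin (log scale), summed over the 227 red cells of blood, over the 188 of them with 90% globin or more, and over erythroid cells of marrow, erythroid cells of spleen and other blood cells. Alas2, Bpgm and Mkrn1 lie far to the right in both sets of red cells, Eef1a1, Npm1 and Ptma to the left of the erythroid cells, and S100a9 and Malat1 differ between both sets of red cells.

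Genes of heme synthesis were among the most enriched. Of 14 on the list, 6 passed the floor against marrow and 6 against spleen, and 5 were higher and 1 lower in each. Within the 188 cells 5 of 5 were higher in each, and these stayed higher per UMI of all genes. The list made up 1.98% of the RNA beside globin in red cells and 4.63% in the 188. It made up 0.098% in marrow erythroid, 0.104% in spleen erythroid and 0.034% in other blood cells. Per UMI of all genes the list was also higher over all red cells, by 1.72-fold against marrow and 1.61-fold against spleen. Alas2, a marker of the label, supplied 1586 of the list's 2421 UMIs in red cells, so these list values rest largely on that gene. The list without Alas2 was not compared. Alas2 had 1586 UMIs in red cells and 1 in each erythroid group, a ratio of 72004 against marrow with a counting interval of 12905 to 2845790. This interval and all others on RNA cover counting error only. In the 188 cells Slc25a37 (mitoferrin, which brings iron into mitochondria) was 251-fold higher than in marrow (195 to 325). Fech, which inserts the iron into heme, was 138-fold higher (112 to 171), and Fam210b, a mitochondrial gene of erythroid iron supply, 149-fold (97.5 to 228). Slc25a39, a mitochondrial carrier of glutathione, was 73.4-fold higher (61.8 to 86.9). Tmem14c, a mitochondrial porphyrin transporter, was the lower gene, at 106 CPM in all red cells, against 369 in marrow and 360 in spleen.

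All measured genes of late red cell maturation were higher. The list has 27 genes, 17 passed the floor against marrow and 17 against spleen, and 17 were higher in each, of which 13 stayed higher per UMI of all genes and 4 were lower. Among the 188 cells' measured members 14 of 14 were higher in each, and 13 stayed so. They were 4.53% of the RNA beside globin in red cells and 10.4% in the 188, against 0.098% in marrow, 0.094% in spleen and 0.256% in other blood cells. The list was higher per UMI of all genes too, by 3.94-fold against marrow and 4.08-fold against spleen. The list was drawn up with earlier results of these data known, so its direction is no independent evidence.

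Among its members, Bpgm had a level of 8317 CPM in red cells and 20280 in the 188, against 11.2 in marrow, 8.51 in spleen and 4.21 in other blood cells, a 745-fold difference from marrow over all red cells (576 to 979). Bpgm was seen in 179 of 227 red cells (78.9%), in 26.6% of marrow, 27.5% of spleen and 1.70% of other blood cells. Mkrn1 had 8039 CPM in red cells and 19124 in the 188, against 67.7 in marrow and 75.2 in spleen. Bnip3l, needed to clear mitochondria from reticulocytes, was 60.5-fold higher than in marrow in the 188 cells (53.6 to 68.2). The autophagy genes Gabarapl2 and Map1lc3b were 90.6-fold (78.3 to 104.8) and 35.0-fold higher (29.9 to 40.8). Ube2l6 and Ube2o encode ubiquitin-conjugating enzymes, and Ube2o clears ribosomes in reticulocytes. Ube2l6 was 670-fold (521 to 871) and Ube2o 172-fold higher (115 to 260). Tent5c, a poly(A) polymerase, was 1264-fold higher (843 to 1972).

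Genes outside the lists joined these at the upper end. The 12 genes with the highest ratio to both erythroid groups included Alas2, Apol11b, Rsad2, Slc4a1, Bpgm, Trim10, Fam220a, Tent5c, Ube2l6, Prr5l and Il1b. Apol11b, a member of the apolipoprotein L family, had 85 UMIs in 33 red cells and 0 in every other group. The counting interval of its ratio to marrow erythroid cells starts at 1024-fold. Rsad2, an interferon-induced antiviral gene (viperin), had 240 UMIs in 83 red cells and 140 UMIs in 62 of the 188, against 5 UMIs in marrow and 16 in spleen. Its level was 3237 CPM in the 188 cells and 96.9 in other blood cells. Trim10, a tripartite motif gene of erythroid cells, had 39 UMIs, against 3 in marrow and 3 in spleen. Prr5l and the cytokine gene Il1b belonged to the 19 cells of many genes: Prr5l had 32 UMIs over all red cells and 0 in the 188, and Il1b had 189 and 6.

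Red cell membrane and skeleton genes were divided. Of 22 on the list, 9 passed the floor against marrow, with 5 higher and 3 lower, and 8 against spleen, with 5 higher and 2 lower. Within the 188 cells 5 of 5 were higher against marrow, and 5 were higher and 1 lower of 6 against spleen. Of the higher genes 4 stayed higher per UMI of all genes over all red cells, and 3 in the 188. They held 0.474% of the RNA beside globin in red cells and 0.920% in the 188, against 0.163% in marrow and 0.177% in spleen, but per UMI of all genes the list was 4.06-fold lower than in marrow and 4.40-fold lower than in spleen. Slc4a1, the anion exchanger band 3, had 73 UMIs in 36 red cells and 0 in both erythroid groups. The counting interval of its ratio starts at 876-fold against marrow and at 1391-fold against spleen. Epb41, protein 4.1 of the skeleton, was 46.7-fold higher than in marrow in the 188 cells (38.1 to 56.9). Cd47, which restrains uptake by macrophages, was called lower than in both erythroid groups over all red cells. In the 188 cells, on 4 UMIs, it was called lower against spleen. Against marrow it was 4.92-fold lower there but did not pass the floor. Aqp1, the water channel, had 0 UMIs.

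Genes that protect hemoglobin from oxidation followed. Of 11 in the table, 10 passed the floor against marrow, with 8 higher and 1 lower, and 11 against spleen, with 8 higher and 2 lower. For the 188 cells 7 were higher and 2 lower of 9 in each. In both sets 1 of the higher genes stayed higher per UMI of all genes. They made up 1.80% of the RNA beside globin in red cells and 3.66% in the 188, against 0.481% in marrow and 0.504% in spleen, whereas per UMI of all genes they were 3.15-fold lower than in marrow and 3.30-fold lower than in spleen. In the 188 cells Gpx1 was 18.9-fold higher than in marrow (17.6 to 20.3). Prdx2, a peroxiredoxin abundant in red cells, was 7.63-fold higher (6.59 to 8.80). Hagh, a glyoxalase, was 71.0-fold higher (55.7 to 90.2), the catalase gene Cat 15.4-fold (9.82 to 23.2) and the biliverdin reductase gene Blvrb 5.19-fold (4.37 to 6.12). Gpx1, Prdx2, Cat and Blvrb were lower than in marrow per UMI of all genes, over all red cells and in the 188, and Hagh was not. Txn1, thioredoxin, was 2.24-fold higher than in marrow over all red cells, where it was lower per UMI of all genes, and 3.60-fold lower in the 188, where it had 8 UMIs.

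Iron storage genes were high beside globin, while the iron uptake gene named here was too scarce to call. Of 9 genes, 5 passed the floor against marrow and 5 against spleen, with 4 higher and 1 lower in each, and 3 of the higher genes stayed so per UMI of all genes. Within the 188 cells 2 of 2 were higher in each, and 0 stayed so. The list was higher beside globin, at 1.91% in red cells and 3.11% in the 188, against 0.346% in marrow and 0.342% in spleen, and 2.14-fold lower than in marrow and 2.11-fold lower than in spleen per UMI of all genes. Ftl1 had levels of 21367 CPM in the 188 red cells, 915 in marrow and 908 in spleen, and Fth1 had 9573, 2024 and 1983. Per UMI of all genes both were lower than in these groups in the 188 cells, and Fth1 also over all red cells. The transferrin receptor gene Tfrc, through which iron enters, had 2 UMIs in all red cells. It did not pass the floor against marrow or spleen, so no direction is given.

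Translation genes split between a few at high levels and a large block at low levels. Ribosomal protein genes, 101 of them, made up 5.67% of the RNA beside globin in red cells and 9.35% in the 188, against 34.9% in marrow and 35.1% in spleen erythroid cells and 9.73% in other blood cells. Of 15 translation factor genes, 14 passed the floor against marrow and 14 against spleen, with 2 higher and 9 lower in each, and in the 188 cells 4 were higher and 9 lower of 13 in each. Eef1a1, the elongation factor that brings tRNA to the ribosome, had 578 CPM in the 188 cells, against 5980 in marrow and 5843 in spleen. Eef1b2 and Naca were lower as well. Pabpc1, the poly(A)-binding protein, was 7.18-fold higher than in marrow (6.36 to 8.07), and Eif1, which helps to choose the start codon, 4.06-fold (3.51 to 4.67). Per UMI of all genes each of the higher translation factors, Pabpc1 and Eif1 included, was lower than in both erythroid groups, over all red cells and in the 188. The 13 mitochondrial genes made up 0.640% of the RNA beside globin in red cells and 1.21% in the 188, against 1.12% in marrow and 1.69% in spleen.

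Ubiquitin genes were led by Ubb. Against marrow 8 of 10 genes passed the floor, with 4 higher and 1 lower, and against spleen 7, with 3 higher and 1 lower. For the 188 cells 5 were higher and 1 lower of 6 in each. In both sets 1 of the higher genes stayed higher per UMI of all genes. The list made up 1.89% of the RNA beside globin in red cells and 3.67% in the 188, against 1.04% in marrow and 0.922% in spleen, and was 6.48-fold and 5.76-fold lower than in these per UMI of all genes. Ubb had 28188 CPM in the 188 cells, against 1690 in marrow and 1168 in spleen, and was lower per UMI of all genes over all red cells and in the 188. Rps27a, which encodes ubiquitin joined to a ribosomal protein, was 6.95-fold lower than in marrow in the 188 cells. Ube2c, an enzyme that acts in mitosis, was 6.92-fold higher than in marrow in the 188 cells (5.46 to 8.65), with 81 UMIs in 42 of them, and lower per UMI of all genes over all red cells and in the 188.

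**Figure D4:**
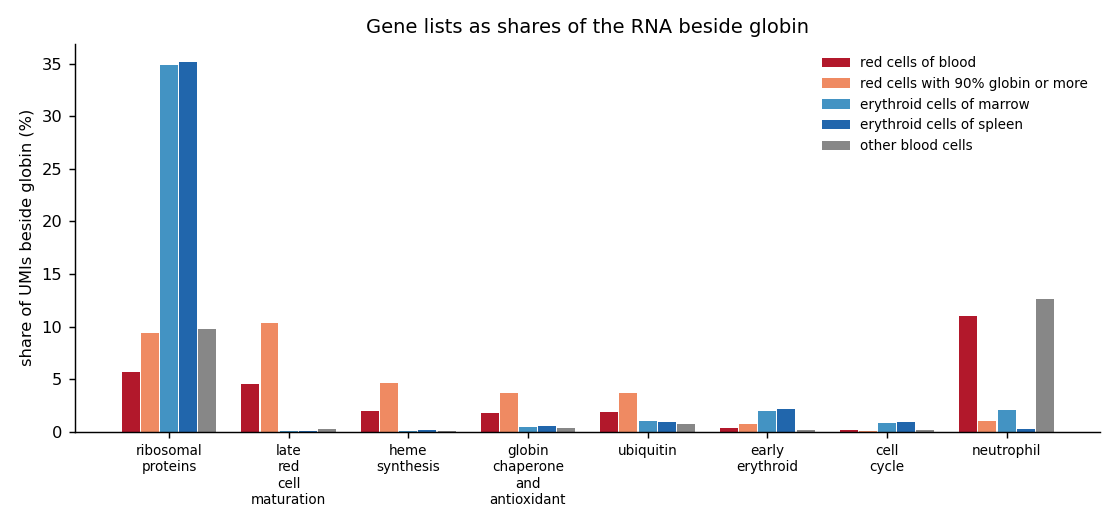
Bars give the share of UMIs beside globin (percent) that each gene list took in the 227 red cells of blood, in the 188 of them with 90% globin or more, and in erythroid cells of marrow, erythroid cells of spleen and other blood cells. Ribosomal protein genes took 5.67% in red cells against 34.9% in marrow, late maturation genes 4.53% against 0.098%, and the neutrophil list 11.02% in all red cells and 1.01% in the 188.

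Progenitor and cell cycle genes were nearly absent. Of 18 early erythroid genes, 12 passed the floor against marrow and 12 against spleen, with 1 higher and 11 lower in each, and in the 188 cells 1 was higher and 10 lower of 11. The reference cells were chosen on Car1 and Klf1, so the low level of Car1 (1 UMI) and of Klf1 (0 UMIs) in red cells is no finding. Ptma, a chromatin-associated protein of dividing cells, had 277 CPM in the 188 cells, against 5099 in marrow and 5248 in spleen. The nucleolar genes Npm1 and Ncl had 4 and 2 UMIs in the 188 cells and were 36.9-fold and 36.4-fold lower than in marrow. Of 20 cell cycle genes, 9 passed the floor against marrow and 9 against spleen, with 0 higher and 9 lower in each, and 12 were at 0 UMIs. For the 188 cells 0 were higher and 5 lower of 5. H2afz, a histone variant, was 12.2-fold lower than in marrow in the 188 cells. The 12 genes with the lowest ratio to both erythroid groups, Atp5g1, Srsf3, Tubb5, Ranbp1 and Dut among them, had 1 UMI each in all red cells. Genes at 0 UMIs were set to 3 counts for this order, so a gene at 1 UMI ranks below one at 0 and the order among the scarcest genes has no meaning.

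Car2 was the exception among early erythroid genes. It encodes carbonic anhydrase 2, which serves carbon dioxide transport, and is not a gene of the rule. It had 323 UMIs in 53 red cells, and 256 UMIs in 39 of the 188, with up to 37 in 1 cell. Its level was 5920 CPM in the 188 cells, against 1194 in marrow, 987 in spleen and 0.366 in other blood cells. Over all red cells it was 2.21-fold higher than in marrow and 2.68-fold higher than in spleen, and lower than both per UMI of all genes, as in the 188 cells. In contrast, 97.5% of marrow and 99.1% of spleen erythroid cells had a UMI of Car2, against 23.3% of red cells.

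Erythroid transcription factors were low and divided in direction. Of 18 genes, 9 passed the floor against marrow and 9 against spleen, with 4 higher and 4 lower in each, and 1 of the higher genes stayed so per UMI of all genes. Within the 188 cells 1 gene passed the floor and was lower. Gata1, Gfi1b and Myb had 0 UMIs, as did Klf1. Foxo3, which drives late erythroid genes, had 221 CPM in all red cells and 162 in the 188, against 53.5 in marrow and 45.5 in spleen, and was lower than both per UMI of all genes. E2f2, which guides the last divisions, had 324 in the 188 cells on 14 UMIs, against 9.37 and 4.99. Klf3 and Klf13 were higher over all red cells, with 48 and 28 UMIs, but lower per UMI of all genes, and had 2 and 3 UMIs in the 188, at 46.2 and 69.4 CPM, against 48.8 and 82.7 in marrow.

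Genes of glycolysis and antigen presentation gave few measurable members. Of 13 glycolysis genes, 6 passed the floor against each erythroid group, with 1 higher and 3 lower against marrow and 1 higher and 2 lower against spleen. Their share was 0.148% in red cells and 0.0462% in the 188, against 0.277% in marrow and 0.234% in spleen. Of 5 genes of MHC class I, 3 passed it, with 1 higher and 1 lower in each. For the 188 cells 2 glycolysis genes passed it and both were lower, and 2 MHC class I genes passed it, with 0 lower against marrow and 1 lower against spleen and 0 higher in each. The higher MHC gene was lower per UMI of all genes in each comparison, and the higher glycolysis gene was lower against marrow.

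RNA of other cell types was present in small amounts beside the 19 cells of many genes. S100a9 was seen in 141 of 227 red cells (62.1%) and in 109 of the 188 (58.0%) at a median of 1 UMI, against 97.7% of other blood cells at a median of 192. The ratio of S100a8 to S100a9 UMIs was 0.863 in red cells and 0.852 in the 188, against 0.851 in other blood cells. Over all 227 red cells the neutrophil list had 14 higher and 3 lower of 18 against marrow and 15 higher and 0 lower of 15 against spleen. Of these 14 and 15 genes, 8 and 13 stayed higher per UMI of all genes. In the 188 cells it had 0 higher and 3 lower of 7 against marrow, and 3 higher and 0 lower of 4 against spleen, of which 0 stayed higher per UMI of all genes. Monocyte genes took 0.260% in red cells and 0.382% in the 188, against 1.06% in other blood cells. Platelet genes took 0.0164% and 0.0393%, against 0.00838%, on only 20 UMIs in red cells and 17 in the 188. Of the 10 platelet genes 0 passed the floor in any comparison, so no direction is given. B cell genes had 4 UMIs, T and NK cell genes 2 and dendritic genes 20, and all 8 stem and myeloid progenitor genes and all 4 basophil and mast cell genes were at 0. How much of this came from free RNA was not tested.

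The surface antibodies did not enter the rule and can be tested over hashtags, although the sort selected on cKit. The labels' protocol describes hashtag antibodies that differ by organ, mouse and condition, without saying which mouse a number stands for, and each hashtag is taken here as 1 mouse. CD24, a small anchored protein of red cells and neutrophils, dominated the red cells: its median count was 497 and its median share of a cell's antibody counts 88.0%. Marrow erythroid cells had a median CD24 count of 262 (27.1%), spleen erythroid cells 99.5 (12.8%) and other blood cells 92 (5.03%). CD44 had a median count of 25 in red cells, against 354 in marrow erythroid, 381 in spleen erythroid and 1163 in other blood cells. The stem cell factor receptor ckit, which the sort used, had a median of 0 in red cells, against 84 in marrow, 83 in spleen and 0 in other blood. CD49d, an integrin of young erythroid cells, had medians of 1, against 57, 81 and 8 in the same order. Only the 3 hashtags with at least 5 assigned red cells enter the tests, so red cells without an assigned hashtag are left out. The red cells without a hashtag had a median CD24 count of 363, below the 497 over all red cells.

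Against the other blood cells of the same hashtag, CD24 averaged 3014 counts per cell in the red cells of hashtag 4, 3825 in those of hashtag 5 and 8777 in those of hashtag 8. The other blood cells of hashtags 4, 5 and 8 averaged 149, 281 and 167. Red cells thus had more CD24 in every pair, with no overlap. The means over hashtags were 5205 ± 3119 in red cells and 199 ± 71.8 in other blood cells (SD, n = 3 each). For CD44 they were 426 ± 152 and 1235 ± 79.4. With 3 pairs an exact two-sided permutation test cannot go below p = 0.25. Accordingly 0 of 18 antibodies were called higher (0%) and 0 lower (0%), and 0 had an unadjusted p under the 0.05 threshold. In all 3 pairs 4 antibodies were higher and 7 lower in red cells, and the lower ones included CD62L with 47.8 ± 10.5 counts against 242 ± 17.8, and CD11b with 26.7 ± 20.3 against 85.4 ± 10.2.

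Against the erythroid cells of marrow and spleen, antibodies were compared as shares of a hashtag's antibody counts by an exact two-sided permutation test over 3 hashtags of red cells and 8 of each tissue, with Benjamini-Hochberg adjustment over 36 tests. CD24 held 88.2%, 84.1% and 91.4% of the counts in red cells of hashtags 4, 5 and 8. In marrow erythroid cells its share was between 28.8% and 45.1%, and in spleen erythroid cells between 14.5% and 20.3%, so neither overlapped the red cells. The means were 87.9% ± 3.65 in red cells (SD, n = 3), 35.2% ± 5.33 in marrow and 18.3% ± 2.19 in spleen (n = 8 each). Both differences had p = 0.0121 by the exact permutation test, the smallest it can give, and adjusted p = 0.0198. Against marrow 1 of 18 antibodies was higher (5.56%) and 11 lower (61.1%), and against spleen 1 was higher (5.56%) and 10 lower (55.6%). By share, the single higher antibody was CD24 in each. The test treats the hashtags of the tissues as unrelated. Compared within hashtags 4, 5 and 8 as a replicate block, 0 antibodies were called in either comparison, since 3 pairs cannot go below p = 0.25 by the exact permutation test, and the smallest adjusted p was 0.346. Since CD24 fills most of a red cell's counts, the other shares had to shrink, and a lower share need not be a lower count.

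CD44, ckit and CD49d were lower by this test in both comparisons. The sort kept Gr1- cells only if they were cKit+, so the ckit difference is tied to the sort. It is counted among the lower antibodies but is no finding. CD44 took 8.11% ± 3.49 in red cells, 36.8% ± 2.81 in marrow and 50.4% ± 2.30 in spleen. The share of ckit was 0.0310% in red cells, against 9.42% in marrow and 10.3% in spleen, and that of CD49d 0.133%, against 6.00% and 9.92%. On mean counts the CD44 difference from marrow turned round, with 67.5 more counts per cell in red cells and adjusted p = 0.380 by the exact permutation test. In red cells with 90% globin or more and hashtags with at least 3 of them, a choice made after the data were seen, CD44 averaged 92.9 ± 83.3 counts (SD, n = 3), against 358 ± 74.9 in marrow and 441 ± 135 in spleen (n = 8 each), with adjusted p = 0.0336 by the exact permutation test in each. CD24 averaged 6438 ± 2773 counts in those cells, against 346 ± 104 in marrow and 162 ± 59.6 in spleen, with the same adjusted p. These means cover only cells with an assigned hashtag, and 81.9% of the 188 red cells carried none. Over all 188 the CD24 count had a mean of 1910 and a median of 516.5, so the tested cells run high. CXCR2 was also called higher on the mean counts of the assigned cells, at 6.72 against 1.36 in marrow and 2.70 in spleen. So was CXCR4 against spleen, at 43.8 against 10.2. Against marrow CXCR4 averaged 43.8 against 22.5 and was not called, although its share was lower. On these counts 4 antibodies were lower in each comparison, ckit among them. Leaving out hashtag 4, 5 or 8 left 2 hashtags of red cells, at which no call is possible. Tissue and library cannot be told apart in these comparisons.

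The RNA of these surface proteins is given beside the antibodies as a description. Cd24a had 192 UMIs in red cells, a level of 1570 CPM and of 3538 in the 188, against 113 in marrow erythroid, 127 in spleen erythroid and 130 in other blood cells. Cd44 had 1022 CPM over all red cells and 92.5 in the 188, on 4 UMIs, against 62.7 in marrow, 73.3 in spleen and 1141 in other blood cells. Kit had 1 UMI in all red cells and 0 in the 188.

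**Figure D5:**
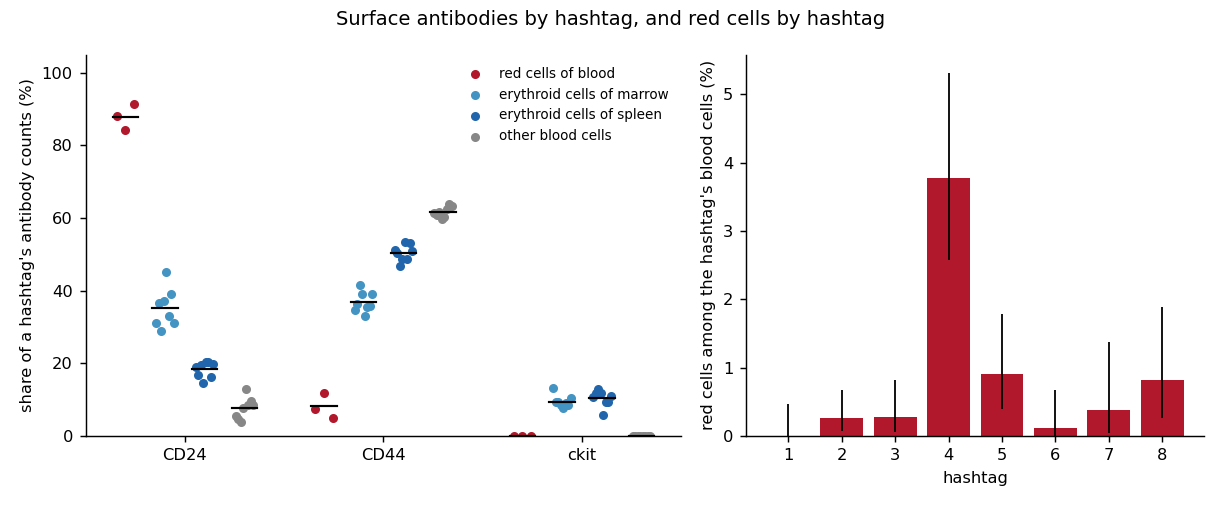
Left, each point is 1 hashtag's share (percent) of its antibody counts that fell on CD24, CD44 or ckit, for red cells of blood (3 hashtags), erythroid cells of marrow and of spleen (8 each) and other blood cells (8), with bars at the means. Right, bars give the percent of the blood cells assigned to each hashtag that are red cells, with exact Clopper-Pearson 95% intervals. Red cells without an assigned hashtag are left out. CD24 stands at 84.1% to 91.4% in red cells, and hashtag 4 at 3.78% lies above the other 7.

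Most red cells could not be tied to a mouse, because they carried few hashtag antibodies. Red cells had a median of 15 hashtag counts, against 837 in marrow erythroid, 726.5 in spleen erythroid and 510 in other blood cells. A cell was assigned the hashtag with the highest count if that count reached 20 and was 3 or more times the next. By that rule 54 of 227 red cells carried 1 hashtag (23.8%, 18.4% to 29.9%), 6 carried several and 167 none (73.6%). In the 188 cells 32 carried 1 (17.0%) and 81.9% none. Among marrow erythroid cells 82.3% carried 1 hashtag and 0 of 203 none, among spleen erythroid cells 92.7% and 1 of 218, and among other blood cells 92.7% and 10 of 7536. The total over the 18 surface antibodies had a median of 632 in red cells, against 949 in marrow erythroid, 784 in spleen erythroid and 1829 in other blood cells. Without CD24 the median total over the other 17 was 64 in red cells, against 635, 647 and 1709.5 in the same order, so the low counts held for these antibodies together and not for CD24.

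The assigned red cells came mainly from hashtag 4. Hashtags 1 to 8 held 0, 4, 3, 31, 8, 1, 2 and 5 of the 54 cells. Hashtag 4 thus held 57.4% of the assigned red cells and 11.3% of the assigned other blood cells. Red cells were 3.78% of the blood cells assigned to hashtag 4 (2.58% to 5.32%) and 0.908% of those assigned to hashtag 5 (0.393% to 1.78%). For hashtag 8 the share was 0.810% (0.264% to 1.88%) and for the others at most 0.382%. These shares run low, since 73.6% of red cells and 0.133% of other blood cells carried no hashtag and are left out. Of the 167 red cells without an assigned hashtag, the highest count was of hashtag 2 in 71 and of hashtag 3 in 43, and of hashtag 4 in 11. Hashtags 2, 3 and 4 held 31.5%, 21.4% and 12.7% of the hashtag counts of these red cells, against 25.4%, 25.9% and 10.1% in other blood cells, so these highest counts do not show which mouse a cell came from. The assigned cells may therefore not stand for the rest.

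Values of red cells with and without a hashtag are set side by side, with no test. Those without had a median CD24 count of 363 and a median of 93 genes, and those with 1 hashtag 1289 and 127. Levels in the 167 cells without a hashtag were 29571 CPM for Alas2 and 18598 for Bpgm, and the neutrophil list took 1.01%. In the 31 red cells of hashtag 4 these levels were 9689 and 6960 CPM, beside a neutrophil share of 9.20%. Cells of many genes are among these 31 and weigh heavily in their sums. The cell with most supplied 3728 of the 21983 UMIs beside globin, at 1513 genes. The levels are therefore not read as a trait of the hashtag. Over the red cells of hashtags 2 to 8 Hbb-bt made up between 16.8% and 19.9% of beta globin UMIs and alpha genes between 45.7% and 48.4% of globin.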

How the data were processed

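The deposited UMI counts of 32285 genes, 10 hashtag antibodies (8 in use) and 18 surface antibodies in 20012 cells were used as the authors made them with Cell Ranger 7.0.1, per the file headers, on the mm10 build, per the submitters' processing notes. The tie of barcode suffix to tissue rests on the number in the library names. All deposited cells were kept, and no doublet caller was run. Counts were summed over cells and divided by the UMIs beside 10 hemoglobin genes. Ratios carry exact conditional binomial 95% intervals and shares exact Clopper-Pearson ones; both, like the 3 counts that stand for 0, cover counting error only. RNA comparisons have no test, as each tissue is 1 library and the cells were chosen on RNA. Antibodies were tested per hashtag with exact permutation tests and Benjamini-Hochberg adjustment at 0.05. Hashtags are taken as mice, so p-values measure the spread between hashtags. The cells, gene lists and tests were chosen with earlier results of these data known.

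Genes were named by rule: the 15 with most UMIs, the 12 highest and 12 lowest against both erythroid groups without ribosomal, mitochondrial and unnamed genes, and list members with most UMIs; some of these genes are not reported here. Isg20, Isg15, Cd24a, Cd44 and Kit fall outside it and were chosen after values were seen. Alternatives covered the globin share, denominators, floors, folds, hashtag rules and left-out hashtags; those with members under 500 genes, and with 90% globin and 3 cells per hashtag, were added after seeing the data. The fold rule and the antibody test were tested on simulated data. Python 3.11.15, numpy 2.4.6, scipy 1.17.1, pandas 2.3.3 and matplotlib 3.10.9 were used. Promoters are from RefSeq.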

Additional observations from a re-analysis of the deposited data

Results flagged for a closer look

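Of 22 groups of hashtags examined for a value that stands apart, 4 held such a value, where chance flags about 1 in 20 groups. Among the 8 hashtags of blood, red cells made up 3.78% of the cells assigned to hashtag 4, and the gap to the next hashtag was 0.76 of the whole range. In other blood cells the mean CXCR4 antibody count of hashtag 5 was 4.233, above those of the other 7 hashtags. Among marrow erythroid cells MHCII took 3.015% of the antibody counts of hashtag 6, above the other 7 hashtags. Among spleen erythroid cells CD106 took 0.7295% of the antibody counts of hashtag 4, above the other 7 hashtags.

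In spleen, 4 cells had 50% globin or more, in data that no comparison above used. Their globin shares were 67.2%, 88.4%, 95.8% and 96.9%, with 96, 103, 132 and 165 genes. CD24 antibody counts were 1311, 8155, 24 and 9 in the same order, and the highest hashtag counts were 137, 2094, 798 and 4.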

How the results depend on the processing

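The counts of genes past the fold rule depend on which cells and floors are used, and the values below are in the order higher, lower against marrow, then higher, lower against spleen, then other blood where it moved by over 1.5 times. At 70% globin they were 199, 275, 209 and 285, and 366 lower against other blood; at 90%, 149, 185, 153 and 191; with members under 500 genes, 159, 211, 162 and 228. A floor of 10 UMIs gave 982, 1275, 995, 1337 and 532 lower against other blood, and a floor of 50 gave 235, 210, 241 and 220, with 98 higher and 84 lower against other blood. Scaling to UMIs of all genes gave 165, 6595, 220 and 6530, with 54 higher and 6101 lower against other blood. A denominator without ribosomal and mitochondrial genes gave 1006 lower against marrow and 1071 against spleen. Means of cell shares gave 265 higher against marrow, 273 higher against spleen and 774 lower against other blood. Cells with 1 hashtag gave 321 lower against marrow, 324 lower against spleen, and 76 higher and 102 lower against other blood. A 4-fold limit left 36 lower against other blood. Leaving out each hashtag in turn gave 489 to 593, 478 to 610, 500 to 605, 513 to 648, 137 to 156 and 184 to 226.

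Of 60 genes followed, directions turned under 3 settings. The mean log2 ratio of Malat1 to both erythroid groups was -0.90 at 90% globin, -0.77 with members under 500 genes and -0.71 per UMI of all genes. Per UMI of all genes it was -0.29 for Ubb, -0.45 for Gpx1, -1.73 for Fth1, -1.88 for Prdx2, -1.91 for Ube2c, -2.27 for Car2 and -1.69 for Pabpc1. Median genes per red cell were 20 and UMIs beside globin 19 after thinning to 500 UMIs, and 59 genes after thinning to 100 beside globin. With a hashtag minimum of 10, 35.7% of red cells carried 1 hashtag.

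The labels give no replicate numbers. With the hashtag number as a replicate block, 3 pairs remained, and 0 antibodies were called higher and 0 lower against marrow, and 0 and 0 against spleen, since the smallest adjusted p was 0.346. Mean counts per cell gave 4 higher and 2 lower against marrow, 6 and 2 against spleen, with a CD44 difference from marrow of 67.5. At 90% globin with 3 cells per hashtag they gave 2 and 4 against marrow, 3 and 4 against spleen. Leaving out 1 hashtag gave 0 to 2 higher and 0 to 11 lower against marrow and 0 to 1 and 0 to 11 against spleen; without hashtag 4, 5 or 8 the smallest adjusted p was 0.0769 to 0.0870, so no call was possible. Requiring 10 red cells per hashtag, or 5 at 90% globin, left 1 hashtag and no test. Depth limits all of this: 227 cells gave 122273 UMIs beside globin, and 43245 in the 188.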

Other observations

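Outside the lists and the rule for naming genes, Isg20 and Isg15, known as interferon-induced genes, were picked after their values were seen and were not tested. Isg20, an exonuclease, had 299 UMIs in 118 of the 188 red cells with 90% globin or more. Its level there was 6914 CPM (UMIs per 1000000 UMIs beside globin), against 30.4 in marrow erythroid, 42.4 in spleen erythroid and 55.1 in other blood cells. Isg15, a ubiquitin-like modifier, had 66 UMIs and a level of 1526 CPM in the 188 cells, against 9.55 in marrow erythroid, 10.6 in spleen erythroid and 142 in other blood cells. Per UMI of all genes, Isg15 was lower in the 188 cells than in other blood cells.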
